A study of Mus musculus with 3 samples.

Results

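The BCL2 family apoptosis regulators described here are 10 genes: the pro-survival genes Bcl2, Bcl2l1 and Mcl1, the effector genes Bax and Bak1, and the BH3-only genes Bad, Bid, Bcl2l11, Pmaip1 and Bbc3. They were taken by name, through every probe set whose platform annotation gives one of them, under its current or an older symbol, as its single gene. This gave 29 of the 45037 probe sets, for 9 of the 10 genes, out of 18193 named genes. Bax has no probe set under its name in the annotation used and was not analysed here. Of the 9 genes, 8 reached a bright signal on at least 1 array. Pmaip1, a BH3-only gene also called Noxa, did not.

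The family decides whether a stressed cell releases cytochrome c from its mitochondria and dies. Pro-survival proteins such as BCL2, BCL-XL (Bcl2l1) and MCL1 hold the effectors BAX and BAK in check, and BH3-only proteins such as BIM (Bcl2l11), PUMA (Bbc3), BID and BAD respond to stress and either bind the pro-survival proteins or activate the effectors. Much of this control acts on the proteins themselves, by cleavage, phosphorylation and rapid turnover, which transcript signals do not show. In mammary epithelium the family is known for its part in the clearing of cells from the ducts and in involution after lactation.

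The cells were 4T1, a mouse mammary carcinoma line grown in RPMI-1640 with fetal bovine serum, on 3 Affymetrix mouse expression arrays, 1 for each condition. In co-culture, 4T1 cells had spent 1 week in contact with MSCs (commonly mesenchymal stem or stromal cells) and were isolated before RNA was taken. In conditioned medium (MSC-CM), they had spent 1 week in medium from MSCs. In regular medium they had neither, and no culture time is given. Neither the origin of the MSCs nor the way the 4T1 cells were isolated is stated in the labels, and isolation applied to co-culture alone, so contact and isolation cannot be told apart.

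Values are MAS5 signals on a linear scale. With 1 array for each condition no difference has a replicate error or a p-value, and precision is limited by that number. A gene or probe set is called higher or lower where its signals differ at least 2-fold and the brighter one reaches 149.3, the level termed bright. Signals under a floor of 42.4 were set to the floor before differences were taken. A gene is represented by its brightest probe set on average over the 3 arrays. For family genes the other probe sets are given beside it, while most genes outside the family are given by the brightest alone. The epithelial markers of the line were bright on all 3 arrays, with Krt18 at 21097, 19115 and 18723 and Epcam at 5543, 5009 and 5196 in co-culture, conditioned medium and regular medium. Fewer cells of a type and less RNA per cell cannot be told apart in such bulk RNA.

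Of the 8 bright family genes, 2 were called higher in co-culture than in regular medium, namely Bcl2 and Bbc3, and 0 were called lower. Over all 9393 genes bright on either array, 5.81% were called higher and 2.76% lower. The other 6 family genes differed less than 2-fold. The median log2 difference of the 8 was 0.59, with a range of -0.08 to 1.24, beside a median of 0.07 over all genes. When each gene took the median of its bright probe sets, the family median was 0.26 and Bcl2, at a log2 difference of 0.93, was no longer called.

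**Figure D1:**
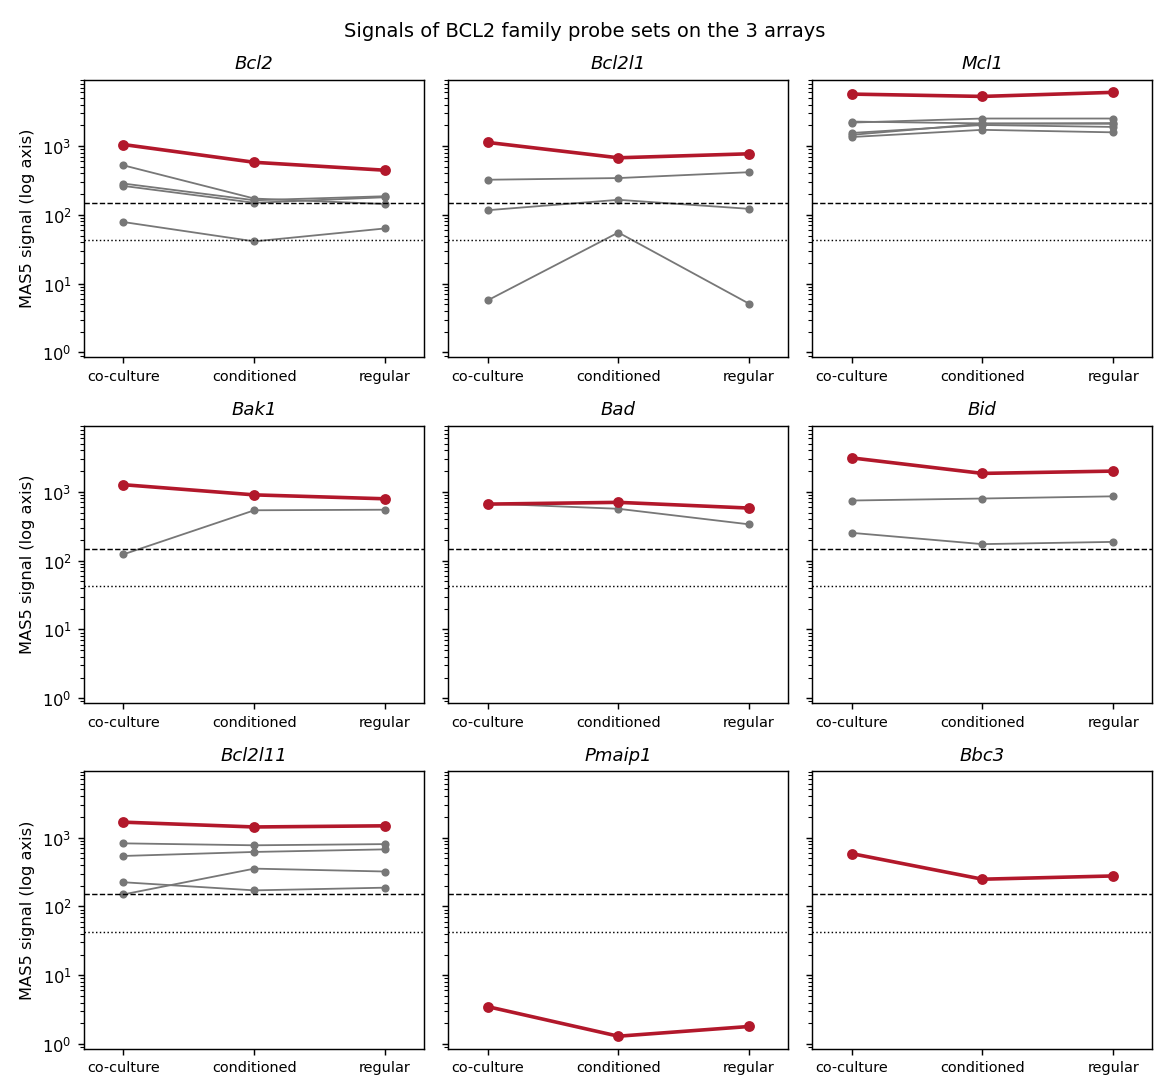
MAS5 signals (log axis) of all 29 probe sets of the 9 BCL2 family genes with a probe set, on the co-culture, conditioned-medium and regular-medium arrays. Lines join the values of 1 probe set, the brightest in red and the others in grey, the dashed line marks the bright level of 149.3 and the dotted line the floor of 42.4. Bcl2 and Bbc3 are highest in co-culture, the Mcl1 lines are nearly flat, and the lower Bak1 line drops to 123.4 in co-culture.

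Bcl2, the founding pro-survival gene, lies on chromosome 1 (GRCm38.p6, 106538176 to 106714290). Its brightest probe set, 1457687_at, had a signal of 1050 in co-culture, 579.6 in conditioned medium and 444.4 in regular medium. Co-culture was highest and regular medium lowest, and the fold of co-culture over regular medium was 2.36. A further probe set, 1437122_at, had 523.4 in co-culture, 172.2 in conditioned medium and 143.4 in regular medium, 3.65-fold higher in co-culture than in regular medium and also called. The remaining bright ones were not called: 1443837_x_at had 284.5 in co-culture, 162.7 in conditioned medium and 186.2 in regular medium, and 1422938_at had 262.7, 149.5 and 180.0 in the same order. The dim 1440770_at had 78.5 in co-culture, 41.1 in conditioned medium and 63.4 in regular medium. Co-culture was thus the highest array on all 5 Bcl2 probe sets, while their log2 differences from regular medium spread from 0.31 to 1.87.

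Bcl2l1 encodes BCL-XL and, by alternative splicing, the shorter pro-death form BCL-XS. Its brightest probe set, 1420888_at, had 1128 in co-culture, 674.1 in conditioned medium and 770.2 in regular medium, 1.46-fold higher in co-culture than in regular medium and not called. The probe set 1420887_a_at, whose suffix marks probes shared by transcript forms of 1 gene, lay the other way, with 323.3 in co-culture, 342.0 in conditioned medium and 416.1 in regular medium. Near the bright level, 1426191_a_at had 116.6, 165.2 and 122.1 in that order. The dim 1426050_at had 5.7, 55.3 and 5.1. No Bcl2l1 probe set was called, and its probe sets did not share a direction.

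Mcl1, a short-lived pro-survival protein whose transcript responds to growth factors and stress, gave bright signals on all 6 of its probe sets. The brightest, 1448503_at, had 5679 in co-culture, 5253 in conditioned medium and 6020 in regular medium. That is a log2 difference of -0.08 between co-culture and regular medium, the smallest among the 8 bright genes, and scaling the arrays to a common median turns its sign. The other 5 probe sets ranged from -0.57 to 0.11 on the log2 scale. The lowest of these was 1416881_at, with 1451 in co-culture, 2107 in conditioned medium and 2154 in regular medium. The highest, 1416880_at, had 2264 in co-culture, 2129 in conditioned medium and 2100 in regular medium. The 3 probe sets whose suffix warns of cross-hybridisation were all lowest in co-culture. Of these, 1437527_x_at had 2188 in co-culture, 2507 in conditioned medium and 2506 in regular medium, 1456243_x_at had 1547, 2018 and 1893, and 1456381_x_at had 1350, 1717 and 1579 in the same order. None of the 6 was called in any comparison.

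Bak1, which forms pores in the mitochondrial outer membrane, had probe sets that differed in opposite directions. The brightest, 1418991_at, had 1268 in co-culture, 902.0 in conditioned medium and 791.1 in regular medium, 1.60-fold higher in co-culture than in regular medium and short of a call. The other, 1425716_s_at, had 123.4 in co-culture, 538.8 in conditioned medium and 549.0 in regular medium, 4.45-fold lower in co-culture and called. Conditioned and regular medium were close to each other on both probe sets. Their gap in log2 difference was 2.83, and of 4228 genes with at least 2 probe sets bright on average, 2, Bak1 among them, had a gap this large. So no direction is given for Bak1 as a gene: its median over both probe sets was -0.74, against 0.68 for the brightest. The suffix of the lower probe set marks probes that may also match another gene's transcripts, and RefSeq lists a further form, N-Bak, among the names of Bak1, which lies on chromosome 17 (GRCm38.p6, 27019812 to 27028627). Which transcript the probe set reads was not tested.

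Bbc3 encodes PUMA, a BH3-only protein that binds all of the pro-survival proteins and is induced through p53 and other stress factors. It lies on chromosome 7 (GRCm38.p6, 16308398 to 16318334) and has 1 probe set, 1423315_at. Its signal was 585.8 in co-culture, 248.5 in conditioned medium and 277.1 in regular medium. Co-culture stood apart from the other arrays, 2.11-fold above regular medium and 2.36-fold above conditioned medium, and both differences were called. With no other probe set, the Bbc3 value has no check on the array, and it is not called when the bright level is raised to the 80th percentile of signal.

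Bcl2l11 encodes BIM, which is made as extra long, long and short splice forms and can bind every pro-survival member. Of its 5 probe sets, all bright, 4 were within 1.25-fold of regular medium in co-culture. The brightest, 1456005_a_at, had 1676 in co-culture, 1427 in conditioned medium and 1483 in regular medium, a log2 difference of 0.18 between co-culture and regular medium. Of the others, 1435448_at had 824.8 in co-culture, 772.9 in conditioned medium and 804.2 in regular medium, 1435449_at had 540.9, 618.7 and 674.4, and 1456006_at had 224.4, 171.0 and 187.2 in the same order, so these did not share a direction. The exception, 1426334_a_at, had 149.5 in co-culture, 354.0 in conditioned medium and 321.5 in regular medium, 2.15-fold lower in co-culture than in regular medium and called. Scaling the arrays to a common median brought that log2 difference from -1.10 to -0.97, under the size needed for a call. As with Bak1, conditioned and regular medium differed little and the co-culture array stood alone.

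Bad, a BH3-only protein kept inactive by phosphorylation and 14-3-3 binding while growth factors are present, had a log2 difference of 0.19 by its brightest probe set, 1416583_at, with 662.0 in co-culture, 702.4 in conditioned medium and 580.1 in regular medium. Its other probe set, 1416582_a_at, had 675.0 in co-culture, 566.3 in conditioned medium and 336.5 in regular medium. This was 2.01-fold higher in co-culture and just past the size rule, and quantile normalization took it to a log2 difference of 0.97, just short of it. It was also 1.68-fold higher in conditioned medium than in regular medium, the largest difference of any bright family probe set in that comparison and not called.

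Bid, which caspase-8 cleaves to link death receptors to the mitochondria, was not called. Its brightest probe set, 1417045_at, had 3112 in co-culture, 1850 in conditioned medium and 1998 in regular medium, 1.56-fold higher in co-culture than in regular medium. Of the other Bid probe sets, 1447873_x_at had 253.3 in co-culture, 173.6 in conditioned medium and 187.1 in regular medium, and 1448560_at had 746.6, 798.4 and 859.4 in that order, so 2 of the 3 were highest in co-culture. Pmaip1, whose protein chiefly binds MCL1, has 1 probe set, 1418203_at, which was under the floor on every array, with 3.5 in co-culture, 1.3 in conditioned medium and 1.8 in regular medium, so no fold is given. A signal under the floor on 1 probe set does not show that the transcript was absent.

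**Figure D2:**
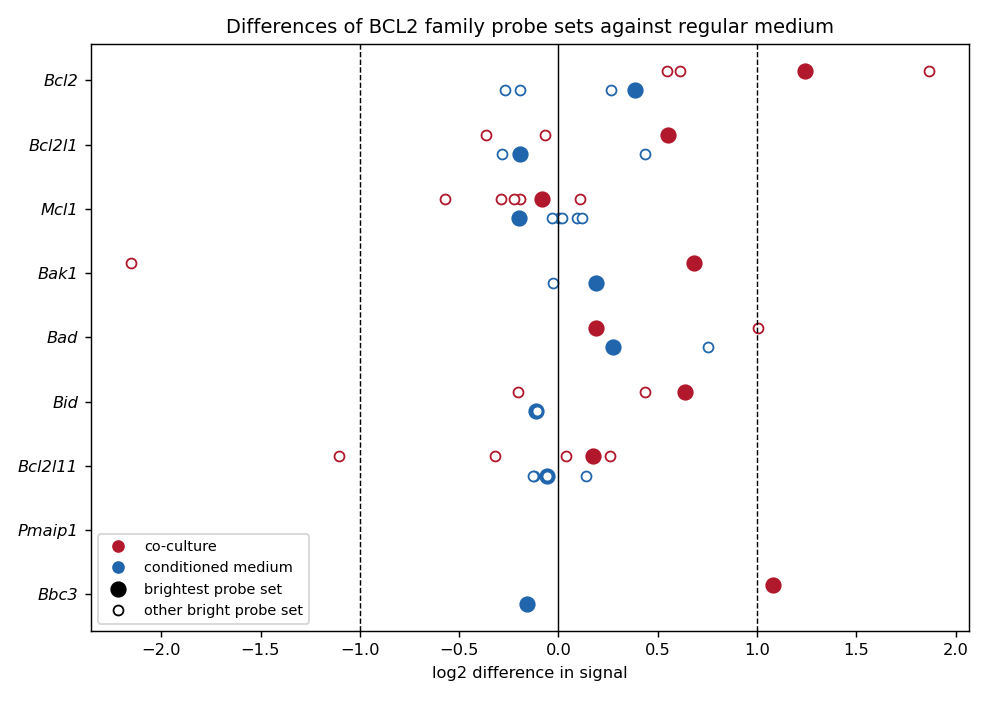
Log2 differences from regular medium for the 26 family probe sets that were bright on at least 1 array, with co-culture in red above conditioned medium in blue in each gene's row. Large filled points are the brightest probe set of the gene, open points the others, and dashed lines mark 2-fold. Red points pass a dashed line for Bcl2, Bad and Bbc3 on the right and for Bak1 and Bcl2l11 on the left, and no blue point does.

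Counted by probe set, 4 of the 25 family probe sets bright in co-culture or regular medium were called higher in co-culture and 2 lower, from Bcl2, Bbc3 and Bad on the higher side and Bak1 and Bcl2l11 on the lower. The shares over all 16899 named probe sets bright on either array were 5.37% higher and 5.49% lower. With the bright level at the 80th percentile, the calls of Bcl2 1437122_at, Bad 1416582_a_at, Bak1 1425716_s_at and Bcl2l11 1426334_a_at were lost, as was that of Bbc3. The 2 lower ones were not the brightest of their gene. Among all such dimmer probe sets, 8.90% were called lower and 4.82% higher in co-culture, whereas among the brightest probe sets 2.76% were lower and 5.81% higher. Of probe sets with the suffix of the Bcl2l11 one, which marks shared transcript forms, 7.31% were lower and 4.29% higher. Of those with the suffix of the Bak1 one, 3.88% were lower and 5.38% higher. Where these probes lie along the transcripts, and RNA quality on the co-culture array, were not tested, so their part in the lower Bak1 and Bcl2l11 values was not tested either.

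**Figure D3:**
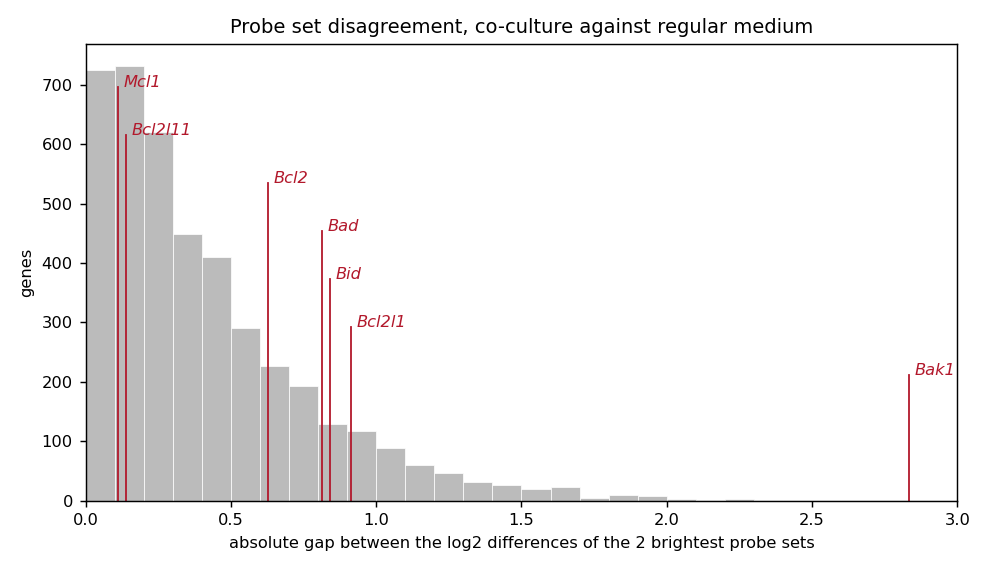
Number of genes (y axis) by the absolute gap between the log2 differences of their 2 brightest probe sets, co-culture against regular medium, over the 4228 genes with at least 2 probe sets bright on average. Red lines mark the 7 family genes with such a pair. The median gap is 0.31, Mcl1 and Bcl2l11 lie under it, Bcl2, Bad, Bid and Bcl2l1 lie between 0.63 and 0.91, and Bak1 lies at 2.83 in the far tail.

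This gap between probe sets of 1 gene served as the only measure of scatter here. It holds no variation between cultures, and what else adds to it was not tested. Its median over all genes was 0.31 on the log2 scale for co-culture against regular medium, and its 95th percentile was 1.15. The family gaps, taken between the 2 brightest probe sets, ran from 0.11 for Mcl1 to 0.91 for Bcl2l1, apart from Bak1. Over all probe sets bright on average, the log2 differences spread wider, over 1.37 for Bcl2l11 and 1.32 for Bcl2. The Bcl2 difference of 1.24 and the Bbc3 difference of 1.08 exceed the median gap, but so do those of the uncalled Bak1, Bid and Bcl2l1, at 0.68, 0.64 and 0.55. Of these 5 only Bcl2 passes the 95th percentile, and those of Mcl1, Bcl2l11 and Bad lie within the median gap. For conditioned medium against regular medium the median gap was 0.14 and the 95th percentile 0.55, so the gap differs between comparisons.

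The promoters of Bcl2 and Bbc3, the genes called higher in co-culture, are shown with that of Mcl1, which was not called in any comparison. Each window runs from 250 bases before to 50 bases after a RefSeq transcript start in GRCm38.p6, and for Bbc3 the most upstream of 3 windows is given. Capitals mark GC boxes, the letters GGGCGG on either strand, which the SP1 family of activators recognises.
Bcl2, chr1:106714241-106714540, minus strand: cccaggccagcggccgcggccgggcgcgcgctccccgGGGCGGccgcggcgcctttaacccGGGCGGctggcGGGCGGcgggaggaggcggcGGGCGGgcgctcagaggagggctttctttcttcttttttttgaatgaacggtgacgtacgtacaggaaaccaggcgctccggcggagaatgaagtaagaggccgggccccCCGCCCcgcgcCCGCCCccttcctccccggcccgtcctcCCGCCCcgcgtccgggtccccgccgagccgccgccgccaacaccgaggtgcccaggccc
Bbc3, chr7:16309333-16309632, plus strand: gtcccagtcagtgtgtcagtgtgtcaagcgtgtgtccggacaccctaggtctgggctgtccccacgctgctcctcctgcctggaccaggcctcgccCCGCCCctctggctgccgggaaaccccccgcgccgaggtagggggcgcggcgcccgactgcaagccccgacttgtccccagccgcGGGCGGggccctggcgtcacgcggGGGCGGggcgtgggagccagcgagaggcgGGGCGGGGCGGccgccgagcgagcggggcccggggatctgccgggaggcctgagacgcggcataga
Mcl1, chr3:95658471-95658770, plus strand: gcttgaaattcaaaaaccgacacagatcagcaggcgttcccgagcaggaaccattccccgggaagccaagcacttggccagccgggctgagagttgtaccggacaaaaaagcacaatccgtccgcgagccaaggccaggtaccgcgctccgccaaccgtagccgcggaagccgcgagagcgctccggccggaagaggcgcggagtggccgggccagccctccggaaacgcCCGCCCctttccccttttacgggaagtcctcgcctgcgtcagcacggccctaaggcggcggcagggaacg

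The Bcl2 window held 7 GC boxes, the Bbc3 window 5, of which a pair overlaps, and the Mcl1 window 1. Among the other uncalled genes the counts varied: the windows of Bad held 4 and 0, that of Bid 3 and both of Bcl2l11 3, while those of Bcl2l1 and Bak1 held 0. These few genes allow no statement on GC boxes and the calls. Of 32851 windows of this length, 35.7% held at least 1 GC box, 2.71% at least 5 and 0.627% at least 7. The GC content was 76.0% for Bcl2, 76.0% for Bbc3 and 65.7% for Mcl1, beside a median of 52.7% over all windows, and GC boxes are made of G and C alone. None of the 3 windows shown held any of 7 further motifs, searched on both strands. These were CCAAT, present in 37.4% of all windows, the TATA box TATAAA, present in 13.6%, the E-box CACGTG, present in 7.15%, and the FOXO element GTAAACA, present in 3.65%. The others were the core of the interferon-stimulated response element, present in 3.44%, the GAS element TTCNNNGAA, to which STAT proteins bind, present in 8.30%, and 1 decamer of the p53 consensus, present in 8.36%. The Bbc3 windows not shown differed: the next one downstream held 1 FOXO element and 4 GC boxes, and the most downstream held 7 GC boxes, 1 CCAAT and 1 E-box. A match is a run of letters and not a binding site, and known p53 sites of Bbc3 may lie outside this window.

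Conditioned medium was set against regular medium to show the cells under MSC secretions without contact. No family gene was called in either direction, over 8 bright genes. Over all 9152 genes bright on either array, 0.109% were called higher and 0.306% lower. None of the 26 bright family probe sets was called, beside 0.188% higher and 0.388% lower over all named probe sets bright on either array. The largest difference among them was a log2 difference of 0.75 for Bad 1416582_a_at, past the 95th percentile gap of 0.55. The median log2 difference of the 8 genes was -0.08, from -0.20 for Mcl1 to 0.38 for Bcl2, and scaling the arrays to a common median moved it to 0.07. For Bcl2, 1457687_at was 1.30-fold higher and 1437122_at 1.20-fold higher in conditioned medium, but 1443837_x_at and 1422938_at were lower, with log2 differences of -0.19 and -0.27. Bbc3 had a log2 difference of -0.16.

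Co-culture was also set against conditioned medium, a comparison that shares the co-culture array with the first, so the calls are not separate evidence. Here 1 family gene of 8, Bbc3, was called higher and 0 lower, against 5.83% higher and 2.60% lower over all 9350 bright genes. Bcl2 had a log2 difference of 0.86 by its brightest probe set, 1.81-fold, and was not called, while its probe set 1437122_at was 3.04-fold higher and was. By probe set, 2 of 26 were called higher and 2 lower, the lower ones again from Bak1 and Bcl2l11, 4.37-fold and 2.37-fold lower in co-culture. With the bright level at the 80th percentile, all 4 of these calls were lost. The shares over all named probe sets bright on either array were 5.45% higher and 5.48% lower. The family median was 0.62, beside 0.07 over all genes.

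Relatives of the family were 5 further pro-survival, 5 multidomain and 6 BH3 genes, of which 2, 5 and 5 had a probe set under their single name. Only 1, 3 and 2 of them were bright in co-culture or regular medium. None of these was called between those arrays, beside 5.81% higher and 2.76% lower over all genes. So few bright genes allow no statement on the relatives as a set. Bcl2l2, the pro-survival gene for BCL-W, had 416.5 in co-culture, 421.2 in conditioned medium and 409.6 in regular medium. Bok, a BAX-like effector, had 1776 in co-culture, 2006 in conditioned medium and 2135 in regular medium. Bcl2l13, a mitochondrial family member, and Bcl2l12 had log2 differences of 0.27 and -0.39. The BH3-only genes Bmf, Bik and Hrk were below the bright level on all 3 arrays, as were Bcl2l10, Bcl2l14 and Bcl2l15. Bnip3, a hypoxia-induced gene of the mitochondrial membrane that also acts in mitophagy, had 1026 in co-culture, 2096 in conditioned medium and 1926 in regular medium. It was called lower against conditioned medium and, at a log2 difference of -0.91, not against regular medium.

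Downstream of the mitochondria, 1 of 8 bright genes of the cytochrome c, apoptosome and caspase list was called in co-culture against regular medium. Over all genes in that comparison, 5.81% were called higher and 2.76% lower. Casp6, an executioner caspase, had 356.3 in co-culture, 902.8 in conditioned medium and 985.2 in regular medium, 2.77-fold lower in co-culture than in regular medium. Its other probe set was dim. Apaf1, the scaffold of the apoptosome, and Casp9, which it activates, had log2 differences of 0.22 and 0.05, Casp8, the caspase of death receptors, had -0.41, and Dffb, the nuclease that cuts DNA in apoptosis, had -0.39. The list median was -0.22. Among 7 bright inhibitors of apoptosis and their antagonists, Birc5 (survivin), which also serves in mitosis, was 2.14-fold lower, with 3851 in co-culture, 8003 in conditioned medium and 8254 in regular medium. The other 6 were not called and ranged from -0.27 for Htra2, a mitochondrial antagonist, to 0.25 for Birc2, a ubiquitin ligase, and the list median was -0.02.

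Of 14 bright transcription factors and regulators known to act on family genes, 4 were called higher in co-culture than in regular medium and 0 lower, with a list median of 0.54. Over all genes the shares were 5.81% higher and 2.76% lower, and the list was chosen with earlier results of these data known. Ddit3 (CHOP), a stress factor known to repress Bcl2 and to induce Bcl2l11 and Bbc3, had 4315 in co-culture, 551.4 in conditioned medium and 524.6 in regular medium, 8.23-fold higher in co-culture. Its other probe set, also bright, gave a smaller difference, with 249.5 in co-culture, 130.1 in conditioned medium and 110.9 in regular medium, a log2 difference of 1.17 from regular medium. Foxo3, known to induce Bcl2l11 and Bbc3, had 975.4 in co-culture, 337.4 in conditioned medium and 465.7 in regular medium, 2.09-fold higher. By another bright probe set its log2 difference was 0.90. The stress factor Atf3 was 4.21-fold and the interferon-induced factor Irf1 2.59-fold higher. Rela and Foxo1 had log2 differences of 0.87 and 0.83 and were not called. Mdm2, the ubiquitin ligase for p53 and itself a p53 target, had 1235 in co-culture, 1154 in conditioned medium and 1167 in regular medium and was not called. None of the 13 of these genes bright in conditioned or regular medium was called between those arrays. Over all genes, 0.109% were called higher and 0.306% lower there.

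**Figure D4:**
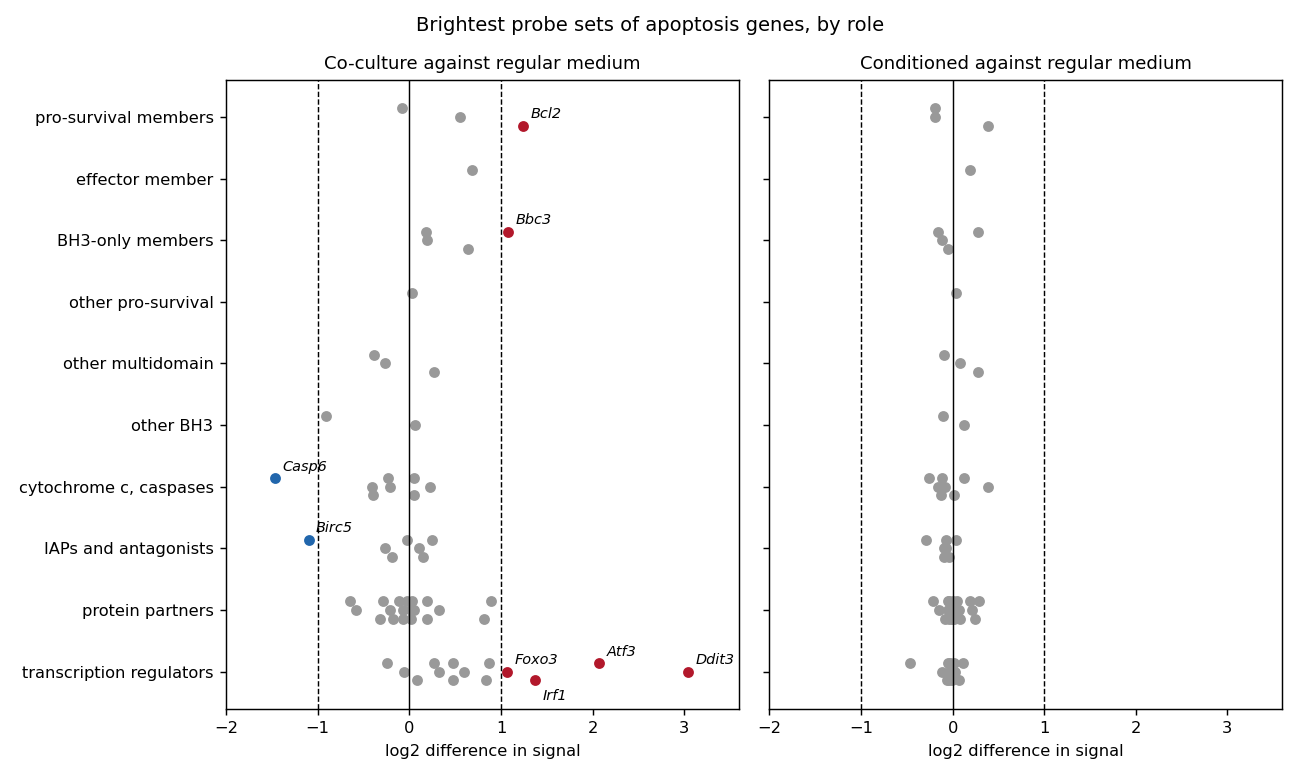
Log2 differences in signal (x axis) of the brightest probe set of each bright apoptosis gene, by role, for co-culture against regular medium (left) and conditioned medium against regular medium (right). Dashed lines mark 2-fold, red points are called higher, blue points lower and grey points neither. The called genes are Bcl2, Bbc3, Casp6, Birc5, Foxo3, Irf1, Atf3 and Ddit3, all in the left panel.

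Some markers of MSCs were also higher in co-culture, while others on the list were dim or under the floor. Of 17 MSC and fibroblast markers, 7 were bright in co-culture or regular medium, and 6 were at or under the floor on both. Among the 7 bright ones, 2, Postn and Bgn, were called higher and 0 lower, beside 5.81% higher and 2.76% lower over all genes. Their median log2 difference was 0.89. The summed signal of the 17 was 7605 in co-culture, 4815 in conditioned medium and 4560 in regular medium, in large part from Nt5e, Postn and Eng, which were bright on all 3 arrays. Bgn had 181.5 in co-culture, 57.8 in conditioned medium and 12.3, under the floor, in regular medium. The other probe sets of Bgn were dim. Beside those called, the collagen gene Col1a2 had 188.2 in co-culture, 100.1 in conditioned medium and 101.8 in regular medium, and the growth factor receptor gene Pdgfra had 187.5, 158.9 and 101.3 in the same order, each 1.85-fold higher in co-culture than in regular medium and not called. Col6a2 lay the other way, with a log2 difference of -0.59. In co-culture the matrix genes Col1a1, Col3a1, Lum and Dcn were near or under the floor, at 41.9, 45.7, 43.8 and 35.2, and Thy1 was at 6.7. Of the smooth muscle markers, Acta2 had 278.3 in co-culture, 157.0 in conditioned medium and 42.4, the floor, in regular medium by its brightest probe set. Acta2 was called higher in both against regular medium by this probe set, whose suffix marks probes that may also match another gene's transcripts. Its other probe sets were under the floor on all arrays, as were the other 3 markers. Of 8 macrophage markers 3 were bright and 0 called, with a sum of 853.8 in co-culture, 764.8 in conditioned medium and 815.2 in regular medium, and Ptprc, Aif1 and Tyrobp were under the floor on every array. Of 9 epithelial markers, all bright, Krt14 alone was called, 2.77-fold lower in co-culture than in regular medium. The part of MSC RNA in the Bcl2 and Bbc3 values was not tested.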

How the data were processed

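The authors' deposited values are linear intensity values, and the submitters' processing notes name MAS5 without a version. The target it scaled to is unstated. Probe sets were named from the platform annotation: 34945 carry 1 gene symbol, 932 several and 9160 none, and symbols were updated through the gene ID against RefSeq (GRCm38.p6). Probe sets with several symbols or none are unnamed here. Differences were taken as log2 signals after raising signals below 42.4, the 40th percentile over the 3 arrays together, to that level. The bright level, 149.3, was the 60th percentile. MAS5 scaling gave the arrays near equal trimmed means, 498.0 in co-culture, 497.7 in conditioned medium and 497.8 in regular medium, so no further scaling was applied.

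The members, gene lists and size rule were chosen with earlier results of these data known. Every member is named. By rule, the other lists give the genes called in any comparison and up to 4 bright genes with the largest differences. Outside that rule, Apaf1, Casp9, Mdm2, Huwe1, Usp9x, the dim relatives of the family and single cell type markers were chosen after their values were seen. No test was run, since each condition had 1 array. The calling rule was run on simulated data, with a noise level set in advance and changes planted only in genes well above the bright level. That run checks the code and gives no error rate for the calls made here. Alternatives covered scaling, floor, bright level, probe set choice and fold size. Promoter windows are from RefSeq; Pmaip1 has none here. Computation used Python 3.11.15, NumPy 2.4.6 and pandas 2.3.3, and figures matplotlib 3.10.9.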

Additional observations from a re-analysis of the deposited data

How the results depend on the processing

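For co-culture against regular medium, the 2 family genes called higher, Bcl2 and Bbc3, were called under quantile normalization, scaling to a common median, either other floor, no bright level and without probe sets marked for cross-hybridisation. With the bright level at the 80th percentile 1 was called, with the median of bright probe sets 1, with a 1.5-fold rule 4 and with a 3-fold rule 0. A 1.5-fold rule called 1586 of all 9393 genes higher and 926 lower, a 3-fold rule 164 and 58, and the 80th percentile 303 and 132. The family median of 0.59 became 0.26 with the median of bright probe sets, and ranged from 0.55 to 0.73 under the others. For co-culture against conditioned medium the 1 call became 0 with the bright level at the 80th percentile, 4 at 1.5-fold and 0 at 3-fold, and the median of 0.62 became 0.089 with the median of bright probe sets. For conditioned medium against regular medium no alternative gave a call of a family gene, 1 probe set of Bad passed a 1.5-fold rule, and the median of -0.08 became 0.073 with scaling to a common median.

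Scaling to a common median raised the median of all bright genes from 0.07 to 0.21 for co-culture against regular medium, and from 0.01 to 0.17 for conditioned medium against regular medium. It called 801 genes higher and 167 lower in co-culture, in place of 546 and 259. For conditioned medium it gave 25 higher and 18 lower, and quantile normalization 15 and 25, in place of 10 and 28. There the higher floor gave 2 and 1, no bright level 59 and 200, the 80th percentile 1 and 1, a 1.5-fold rule 69 and 134, and a 3-fold rule 5 and 12. For co-culture against conditioned medium, 545 and 243 became 282 and 141 at the 80th percentile, 1579 and 930 at 1.5-fold and 177 and 56 at 3-fold. Scaling to a common median adds the same amount to each log2 difference of signals above the floor. Relative to that shift alone, the family values are as in the main setting. No called value changed sign under any alternative that was run, but some uncalled ones did. With the median of bright probe sets, co-culture against conditioned medium, Bak1 went from 0.49 to -0.82 and Bcl2l1 from 0.74 to -0.08. In the same setting Mcl1 went from 0.11 to -0.27, and Bad rose from -0.09 to 0.08. Changes with fold size and bright level follow from their construction; the cause of the others was not tested. No paired analysis was possible because each condition had 1 array.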

Other observations

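Transcripts for proteins that bind, stabilise or modify BCL2 family proteins were taken as a list of 19 genes, each by its brightest probe set alone. All of them were bright, and 0 were called in co-culture against regular medium, beside 5.81% higher and 2.76% lower over all genes. Their median log2 difference was -0.02, beside 0.07 over all genes. Gsk3b, a kinase that marks MCL1 for breakdown, had 2110 in co-culture, 1194 in conditioned medium and 1135 in regular medium, 1.86-fold higher in co-culture than in regular medium. Ppp3ca, the catalytic subunit of calcineurin, which dephosphorylates BAD, had 2813 in co-culture, 1545 in conditioned medium and 1596 in regular medium, 1.76-fold higher. Vdac1, a channel of the mitochondrial outer membrane, had 7223 in co-culture, 11400 in conditioned medium and 11362 in regular medium, 1.57-fold lower. Tmbim6, a modulator of cell death in the endoplasmic reticulum, had a log2 difference of -0.59. The MCL1 ubiquitin ligase gene Huwe1 and the MCL1 deubiquitinase gene Usp9x had log2 differences of 0.32 and 0.20.

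Conditioned medium gave Gsk3b, Ppp3ca, Vdac1 and Tmbim6 log2 differences of 0.07, -0.05, 0.00 and -0.01 from regular medium. In that comparison the 19 genes ranged from -0.21 to 0.29, and 0 were called, beside 0.109% higher and 0.306% lower over all genes.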
